A study of Homo sapiens with 3 samples.

Results

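Lipoprotein lipase (LPL) and 9 genes that work with it in lipid uptake were followed across 3 libraries of CD31+CD34+ cells that differ in surface CD105, or endoglin, an accessory receptor of endothelial cells in BMP and TGF-beta signalling. The 10 genes were taken by symbol from the deposited tables, and all 10 were found among the 18345 genes listed. LPL was chosen for its steep rise with CD105 in these same libraries, and GPIHBP1, LIPG, VLDLR, LRP8, CD36, FABP4, FABP5, APOB and APOE as its partners, so the values of LPL are given as a description and support nothing by themselves. The cells, which the labels call HEPs, were derived from the established H1 line of human embryonic stem cells and carry day 4 of blood differentiation as their time. All 3 populations had the same culture, first activin A with BMP4 and then VEGF with bFGF, and differed in the sorting gate: CD105neg, CD105low and CD105high. Each population was measured by RNA-seq in 1 library from a single cell line. There is therefore no spread between replicates, no difference below has a replicate check, and no p-value is given.

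Lipoprotein lipase splits the triglycerides of circulating lipoproteins at the surface of capillaries, so that fatty acids can enter the tissue. It is made mostly by fat and muscle cells, and GPIHBP1, a protein of the capillary endothelial cell, picks it up below the vessel wall and holds it on the luminal side. Endothelial lipase, encoded by LIPG, is a relative of LPL that is made by endothelial cells themselves and acts mainly on phospholipids. VLDLR and LRP8 are related receptors that bind lipoproteins rich in apolipoprotein E. CD36 takes up fatty acids at the membrane, FABP4 and FABP5 carry them inside the cell, and APOB and APOE are protein parts of the lipoprotein particle.

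The stretch before the transcription start is shown for LIPG, LRP8 and VLDLR, which had 1 entry each in the promoter reference used. LPL, GPIHBP1, FABP4, FABP5 and APOB had none, so the lipase with the widest rise is missing here. CD36 and APOE had 6 and 3 entries and are not shown. The level of LIPG followed CD105, and those of LRP8 and VLDLR did not. Each line gives the 250 bases before the start from RefSeq on build GRCh38.p14, 5′ to 3′. Capitals mark, on either strand, the CCAAT box (CCAAT), the GC box (GGGCGG) and the TATA box (TATAAA).
LIPG, chr18:49561807-49562056, strand +: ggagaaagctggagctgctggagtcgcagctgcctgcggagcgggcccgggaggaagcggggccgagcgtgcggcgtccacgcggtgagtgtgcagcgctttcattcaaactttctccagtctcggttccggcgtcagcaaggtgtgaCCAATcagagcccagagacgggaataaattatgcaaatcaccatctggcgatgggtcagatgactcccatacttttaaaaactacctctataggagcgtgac
LRP8, chr1:53328071-53328320, strand -: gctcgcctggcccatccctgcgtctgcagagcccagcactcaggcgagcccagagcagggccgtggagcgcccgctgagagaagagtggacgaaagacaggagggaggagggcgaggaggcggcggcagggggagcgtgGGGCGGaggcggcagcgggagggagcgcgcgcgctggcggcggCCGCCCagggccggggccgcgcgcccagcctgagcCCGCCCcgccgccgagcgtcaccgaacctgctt
VLDLR, chr9:2621537-2621786, strand +: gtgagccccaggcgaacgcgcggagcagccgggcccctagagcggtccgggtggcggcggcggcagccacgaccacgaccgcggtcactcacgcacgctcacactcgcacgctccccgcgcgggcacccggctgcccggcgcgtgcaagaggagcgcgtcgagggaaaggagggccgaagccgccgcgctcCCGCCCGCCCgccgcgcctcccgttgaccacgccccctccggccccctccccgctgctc
The LIPG stretch held 1 CCAAT box and no GC box. The LRP8 stretch held 3 GC boxes and the VLDLR stretch 2 that overlap, and neither held a CCAAT box. None of the 3 held these TATA letters. The shares of all 35116 promoters of the same table and length that held each motif were 32.0% for the CCAAT box, 42.6% for the GC box and 10.7% for the TATA box. G and C made up 57.2% of the LIPG stretch, 77.2% of that of LRP8 and 78.8% of that of VLDLR, against a median of 58.0% over all promoters. These are matches of letters and not measured sites.

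The levels below are deposited values read as FPKM, that is, per length of transcript and per size of library, so that levels may be compared between genes. They summed to 289229 FPKM in CD105neg cells, 284824 FPKM in CD105low cells and 265618 FPKM in CD105high cells, and how many reads lie behind a value is unknown. ENG, which encodes CD105, stood at 2.12, 8.56 and 13.8 FPKM in CD105neg, CD105low and CD105high, in the order of the sort. PECAM1 and CD34, which encode the other proteins of the gate, stood at 29.9, 41.9 and 50.1 FPKM and at 21.0, 39.2 and 43.2 FPKM. Both thus also rose in the order of the sort. The ratio of CD105high to CD105neg was 1.68 for PECAM1 and 2.06 for CD34. Fold changes are log2 ratios of the value plus 1 FPKM, which understates the change of low genes. A gene is called higher or lower when it is at least 1.5-fold apart on that scale, and measured when it reaches 1 FPKM in at least 1 library. The median gene at or above 10 FPKM lay at -0.10 in CD105high against CD105neg, at 0.02 in CD105low against CD105neg and at -0.11 in CD105high against CD105low. Rescaling each library to the same total moved the median gene by 0.12, 0.02 and 0.10 in these comparisons.

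LPL separated the populations more widely than any other member. It stood at 5.81 FPKM in CD105neg cells, 57.8 FPKM in CD105low cells and 135 FPKM in CD105high cells. By level it ranked 7402 of 18345 genes in CD105neg, 819 in CD105low and 288 in CD105high, so that it lay among ordinary genes in CD105neg and among the abundant ones in CD105high. The plain ratio of the values was 23.3 for CD105high over CD105neg, 9.95 for CD105low over CD105neg and 2.34 for CD105high over CD105low. On the log2 scale with 1 FPKM added, the step between CD105low and CD105neg (3.11) was wider than that between CD105high and CD105low (1.21). In sorted bulk populations like these, more cells that make LPL and more LPL RNA per cell cannot be told apart. None of the sampled sequence of LPL occurs in transcripts of other genes.

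**Figure D1:**
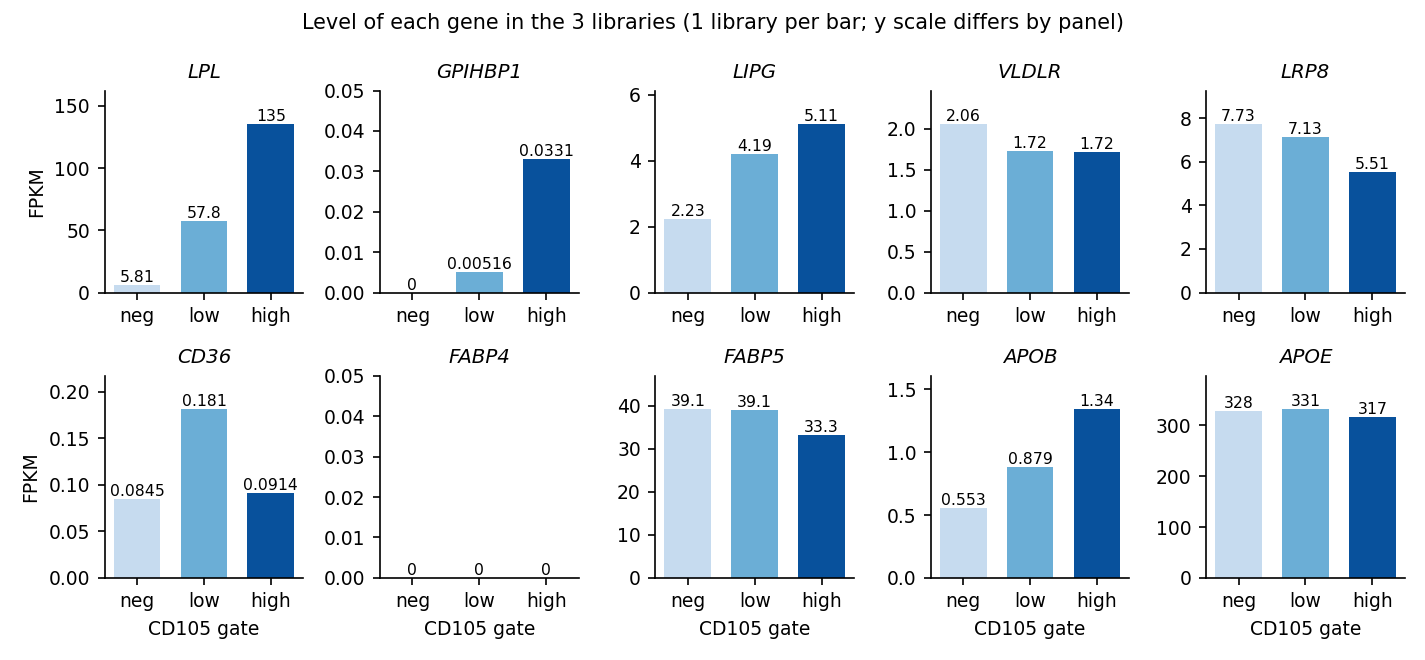
Level in FPKM (y axis, starting at 0 and scaled separately in each panel) of each of the 10 genes in the CD105neg, CD105low and CD105high libraries (x axis), 1 bar per library with its value above it. The bars of LPL, LIPG and APOB are ordered as CD105, with those of APOB below 1 FPKM in CD105neg and CD105low, APOE and FABP5 stay near the same height, and GPIHBP1, CD36 and FABP4 lie below 0.2 FPKM.

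The endothelial partner that carries LPL was close to absent. GPIHBP1 was listed at 0 in CD105neg cells, 0.0052 FPKM in CD105low cells and 0.033 FPKM in CD105high cells. These values lay near the bottom of what the tables hold, since only 1.32% of the values above 0 in CD105low and 7.08% of those in CD105high were lower. GPIHBP1 thus stayed below 0.05 FPKM in the library in which LPL reached 135 FPKM, and a value of that size gives no reliable order of the populations. Its sampled sequence is not shared with other genes.

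LIPG, endothelial lipase, was the other lipase among the members and took the same order as LPL at a much lower level. It stood at 2.23 FPKM in CD105neg cells, 4.19 FPKM in CD105low cells and 5.11 FPKM in CD105high cells. The log2 fold change was 0.92 in CD105high and 0.68 in CD105low, each against CD105neg, and 0.23 between CD105high and CD105low, so that LIPG was called higher in both populations against CD105neg and not between CD105high and CD105low. The level of LPL was 2.60 times that of LIPG in CD105neg, 13.8 times in CD105low and 26.5 times in CD105high.

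The lipoprotein receptors did not follow CD105 upwards. LRP8, a receptor for apolipoprotein E and for reelin, stood at 7.73 FPKM in CD105neg cells, 7.13 FPKM in CD105low cells and 5.51 FPKM in CD105high cells, with a log2 fold change of -0.42 for CD105high against CD105neg that stays short of the 1.5-fold line. VLDLR, its close relative, stood at 2.06, 1.72 and 1.72 FPKM in the same order (-0.17 for CD105high against CD105neg). Between CD105high and CD105low the VLDLR difference was -0.0018, and centring on the median gene turns it to 0.10. LRP8 exceeded VLDLR 3.76 times in CD105neg, 4.14 times in CD105low and 3.21 times in CD105high. Of the sampled sequence of VLDLR, 15.1% also occurs in other genes, mainly the antisense gene VLDLR-AS1, and of that of LRP8 4.79%, likewise from genes on the other strand. The library kit does not mark strand, so reads of these genes and of their antisense partners cannot be told apart.

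The genes for fatty acid uptake and carriage differed from each other by level more than by population. CD36, the membrane fatty acid transporter, stood at 0.085 FPKM in CD105neg cells, 0.18 FPKM in CD105low cells and 0.091 FPKM in CD105high cells, with between 11.1% and 15.8% of the values above 0 in the same library below it. FABP4, a fatty acid carrier of fat cells and of mature capillary endothelium, was listed at 0 in all 3 libraries. FABP5, the carrier of skin and many other tissues, was present where FABP4 was not, at 39.1 FPKM in CD105neg cells, 39.1 FPKM in CD105low cells and 33.3 FPKM in CD105high cells (log2 fold change -0.23 for CD105high against CD105neg, not called). The FABP5 values are uncertain, because 36.1% of its sampled sequence is shared, mostly with its pseudogenes FABP5P7, FABP5P1 and FABP5P11.

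The apolipoprotein members differed widely in level. APOE, the ligand through which remnant particles bind VLDLR and LRP8, was the most abundant member in every library, at 328 FPKM in CD105neg cells, 331 FPKM in CD105low cells and 317 FPKM in CD105high cells. The log2 fold change of APOE for CD105high against CD105neg was -0.05, and it becomes 0.05 after centring on the median gene, so these libraries give it no direction. APOB, the structural protein of VLDL and LDL, stood at 0.55 FPKM in CD105neg cells, 0.88 FPKM in CD105low cells and 1.34 FPKM in CD105high cells. Its log2 fold change of 0.59 for CD105high against CD105neg lay just past the 1.5-fold line, which is 0.58 on this scale, and APOB was measured only through its CD105high value. MTTP, the transfer protein that loads lipid onto APOB, stood at 0.13, 0.34 and 0.11 FPKM in CD105neg, CD105low and CD105high, below the level called measured.

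Taking the members together, 7 of the 10 were measured, and CD36, FABP4 and GPIHBP1 were not. In CD105high against CD105neg, LPL, LIPG and APOB were called higher and no member lower, beside 5.65% of the 11343 measured genes called higher and 6.88% called lower. LPL was chosen on this contrast and APOB passed the filter through it, so the count is a description. After centring on the median gene the shares of all measured genes were 7.55% higher and 4.35% lower, and the same 3 members were past the line. In CD105low against CD105neg, LPL and LIPG were called higher, beside 4.13% of measured genes higher and 2.18% lower. In CD105high against CD105low LPL alone was, beside 1.18% higher and 2.19% lower. Centring made these shares 3.94% and 2.4% in CD105low against CD105neg and 1.84% and 1.33% in CD105high against CD105low. The comparisons share libraries and are not independent of each other. The median log2 fold change of the 7 measured members was -0.05, 0.02 and -0.0018 in these 3 comparisons, against -0.09, 0.02 and -0.10 over all measured genes. The summed level of the 10 members was 385 FPKM in CD105neg cells, 442 FPKM in CD105low cells and 500 FPKM in CD105high cells. LPL made up 1.51%, 13.1% and 27.1% of that sum, and APOE 85.1%, 74.9% and 63.5%.

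Genes with steps like those of LPL were sought among all genes at or above 10 FPKM in a library, by the distance between the log2 fold changes of CD105low against CD105neg and of CD105high against CD105low over the 3 libraries. The nearest was FCN3 (distance 0.19), a ficolin of the lectin pathway of complement, at 17.7, 142 and 314 FPKM in CD105neg, CD105low and CD105high. C8orf4 (0.75) stood at 8.33, 46.9 and 110 FPKM and OIT3 (0.80) at 0.86, 8.27 and 19.7 FPKM. They were followed by GIMAP4 (1.07), a GTPase gene of the GIMAP family, by ESM1 (1.11), an endothelial proteoglycan, and by ADGRF5 (1.14), an adhesion G protein-coupled receptor. Their levels were 1.26, 9.53 and 15.2 FPKM for GIMAP4, 0.10, 3.60 and 12.8 FPKM for ESM1, and 3.13, 16.5 and 27.6 FPKM for ADGRF5. They were chosen by these steps, so that their order is no finding. OIT3, GIMAP4 and ESM1 reached 10 FPKM only in CD105high. With a pseudocount of 0.1, OIT3 came nearest (0.18) and FCN3 next (0.31), and 4 of the 6 genes remained among the nearest. ESM1 and ADGRF5 did not. The plain ratio of CD105high over CD105neg was 128 for ESM1 against 23.3 for LPL, so the place of ESM1 rests on the 1 FPKM added. The other members were left out of this search, and with 3 libraries a pattern has only 2 steps.

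**Figure D2:**
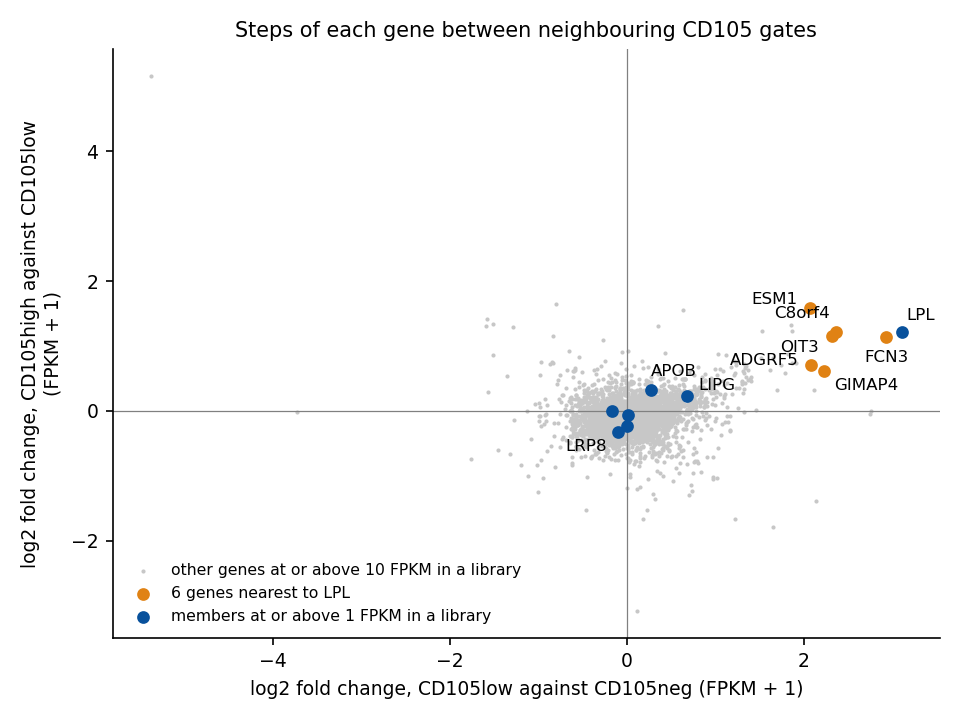
Log2 fold change (FPKM + 1) of CD105low against CD105neg (x axis) and of CD105high against CD105low (y axis), 1 point per gene, with grey for genes at or above 10 FPKM in a library, blue for the 7 measured members and orange for the 6 genes nearest to LPL. LPL lies at the right (3.11 and 1.21) beside FCN3, LIPG (0.68 and 0.23) lies to the right of the dense cloud's middle, and LRP8 (-0.10 and -0.32) lies below it.

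The genes of proteins that activate or inhibit LPL were next compared with the members. The counts of the lists below for CD105high against CD105neg stand beside 5.65% of all measured genes higher and 6.88% lower, and after centring beside 7.55% and 4.35%. Those for CD105low against CD105neg stand beside 4.13% higher and 2.18% lower. Those for CD105high against CD105low stand beside 1.18% and 2.19%. Of the activators and inhibitors, 2 of 8 were measured. APOC2, the activator of LPL, and APOC3, an inhibitor, were listed at 0 in all 3 libraries, although 70.3% of the sampled sequence of APOC2 is shared, mainly with the read-through gene APOC4-APOC2. ANGPTL4, which inactivates LPL, stood at 5.23 FPKM in CD105neg cells, 8.87 FPKM in CD105low cells and 7.55 FPKM in CD105high cells, and was called higher in CD105low against CD105neg (0.66) but not in CD105high against CD105neg (0.46). In CD105high against CD105neg ANGPTL4 stays short of the line after centring (0.56) and passes it after rescaling (0.63). APOC1, an inhibitor whose sequence is shared to 25.5%, stood at 16.3, 12.1 and 12.8 FPKM.

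Among genes that fold, anchor or cleave LPL, 3 of 20 measured genes were higher and 2 lower in CD105high than in CD105neg (median -0.09). LMF1, the factor that folds LPL in the endoplasmic reticulum, named for that role, stood at 4.25, 4.10 and 3.95 FPKM in CD105neg, CD105low and CD105high, near the same level in the 3 libraries. HSPG2, the heparan sulfate proteoglycan perlecan of the basement membrane, stood at 44.5 FPKM in CD105high cells against 19.6 FPKM in CD105neg cells (1.14), with 13.4% of its sequence shared. NDST1, an enzyme that sulfates heparan chains, stood at 15.8 against 9.79 FPKM (0.64). The third higher gene, GPC6, a glypican and outside the rule for named genes, was at 9.84 against 6.13 FPKM. The lower genes were both cell surface proteoglycans, GPC3 at 4.04 against 7.02 FPKM (-0.67) and SDC1 at 2.35 against 4.14 FPKM (-0.62), and both fall short of the line after centring on the median gene (-0.57 and -0.52). After rescaling GPC3 and SDC1 stay past it (-0.64 each). FURIN, a protease outside the rule for named genes, stood at 41.6 against 29.3 FPKM (0.49, not called). It passes the line upwards after centring (0.59) and after rescaling (0.63).

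Other lipases and lipoprotein receptors were read in the same way. In the lipase list, 1 of 6 measured genes was higher in CD105high than in CD105neg and 1 lower. The higher was LIPA, the lysosomal lipase that frees cholesterol and fatty acids from particles taken up, at 22.2 against 13.7 FPKM (0.66). The lower was LIPT1, which transfers lipoate to enzymes and is not a lipase, at 0.58 against 1.57 FPKM, with 25.8% of its sequence shared. LIPH, a phospholipase, stood at 1.29 against 0.56 FPKM (0.56) and LIPE, the hormone-sensitive lipase, at 0.65 against 1.27 FPKM (-0.46), neither called. LIPH, measured only through its CD105high value, passes the line after centring (0.66). In the list of receptors and adaptors, 2 of 22 were higher and 1 lower (median -0.08). DAB2, an adaptor of receptor endocytosis, stood at 39.7 against 23.2 FPKM (0.75), LRP11 at 23.2 against 10.1 FPKM (1.13), and LSR, a receptor of lipolysed lipoproteins, at 1.04 against 2.24 FPKM (-0.67). LSR falls short of the line after centring (-0.57). The LRP11 value is uncertain, with 56.9% of its sequence shared. LRP5, a Wnt co-receptor, stood at 1.83 against 2.97 FPKM (-0.49), not called.

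In the list of fatty acid uptake and activation, 3 of 18 measured genes were higher in CD105high than in CD105neg and 1 lower (median 0.04). The caveolin genes CAV2 and CAV1, which build the membrane pits called caveolae, stood at 4.73 against 1.47 FPKM (1.21) and 4.24 against 2.07 FPKM (0.77). FABP7, the brain form of the fatty acid carriers, stood at 1.43 against 0.55 FPKM (0.65). The lower gene was VEGFB, a growth factor tied to endothelial fatty acid uptake in mice, at 4.61 against 9.53 FPKM (-0.91). Between CD105high and CD105low VEGFB was the single gene of the list past the line (-0.65). In CD105high against CD105neg, CAVIN1 stood at 169 against 117 FPKM (0.53, not called) and passes the line after centring (0.63) and after rescaling (0.65). SLC27A6, at 0.54 against 1.23 FPKM (-0.54, not called), passes it downwards after rescaling (-0.80). CAVIN1 and SLC27A6 fall outside the rule for named genes.

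Genes that store and burn fatty acids were compared as well. Of 15 measured genes of lipid droplets and triglyceride synthesis, 0 were called higher in CD105high against CD105neg and 2 lower (median -0.13). These were PLIN2, a coat protein of lipid droplets, at 36.2 against 57.5 FPKM (-0.65), and DGAT2, which makes triglycerides, at 0.65 against 1.85 FPKM (-0.79). AGPAT1, an acyltransferase with 34.5% of its sequence shared, stood at 5.17 against 7.68 FPKM (-0.49), and LPIN2, a phosphatidate phosphatase, at 18.3 against 13.6 FPKM (0.40), neither called. PLIN2 falls short of the line after centring (-0.55) and after rescaling (-0.54). Of 22 measured genes of fatty acid oxidation, 0 were called higher and 3 lower (median -0.21). CPT2, the inner carnitine palmitoyltransferase of mitochondria, stood at 3.89 against 7.52 FPKM (-0.80), the enoyl-CoA isomerase gene ECI2 at 18.4 against 31.4 FPKM (-0.74) and ACADS, the short-chain acyl-CoA dehydrogenase, at 3.72 against 6.22 FPKM (-0.61). CPT2 and ECI2 share 23.9% and 21.7% of their sequence with other genes. The isomerase gene ECI1 stood at 8.29 against 12.6 FPKM (-0.55), just short of the line. ACADS falls short of it after centring (-0.51), and ACAA1, a peroxisomal thiolase outside the rule for named genes, passes it upwards after rescaling (0.62). Of the sequence of ACAA1, 19.2% is shared.

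Among other apolipoproteins and genes of lipoprotein assembly, 1 of 10 measured genes was higher in CD105high than in CD105neg and 3 were lower (median -0.27). SAR1B, the GTPase that sends lipoprotein particles out of the endoplasmic reticulum, stood at 7.08 against 20.5 FPKM (-1.41). It stood at 7.88 FPKM in CD105low, so that it already differed between CD105low and CD105neg (-1.28). APOA1 and APOA2, the main proteins of HDL, stood at 3.21 against 5.65 FPKM (-0.66) and 0.64 against 1.73 FPKM (-0.74), and APOA1 falls short of the line after centring (-0.56). CETP, which exchanges lipids between lipoproteins, stood at 1.44 against 0.51 FPKM (0.69) and was measured only through its CD105high value. Of 9 measured genes of cholesterol efflux, 0 were called in any comparison on the deposited scale, but ABCG1 passes the line in CD105high against CD105neg after centring (0.63), and both ABCG1 and ABCA1 do so after rescaling (0.78 and 0.60). The widest differences of the list on the deposited scale with 1 FPKM added were those of ABCG1, at 3.20 against 1.90 FPKM (0.53), and ABCA1, at 6.89 against 4.85 FPKM (0.43), both cholesterol exporters, of STARD3, a late endosome sterol protein, at 8.40 against 11.4 FPKM (-0.40), and of ABCA7 at 5.22 against 6.37 FPKM (-0.24).

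Over the 9 lipid lists together, which name 182 genes besides the members, 124 were measured. In CD105high against CD105neg 10 were higher and 13 lower (median -0.11), in CD105low against CD105neg 5 and 2 (median -0.04), and in CD105high against CD105low 2 and 2 (median -0.09). The median of all measured genes was -0.09, 0.02 and -0.10 in the same comparisons. The balance of higher and lower genes depends on the scaling: CD105high against CD105neg had 14 higher and 7 lower after centring and 18 higher and 13 lower after rescaling, and CD105high against CD105low had 2 higher and 0 lower after centring. The 5 higher genes of CD105low against CD105neg were HSPG2, LRP11, DAB2, CAV2 and ANGPTL4, and the 2 lower were SAR1B and PLIN3. Between CD105high and CD105low, PLIN3 and SLC25A20 were higher and VEGFB and APOA2 lower in CD105high. PLIN3 and SLC25A20 fall outside the rule for named genes.

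**Figure D3:**
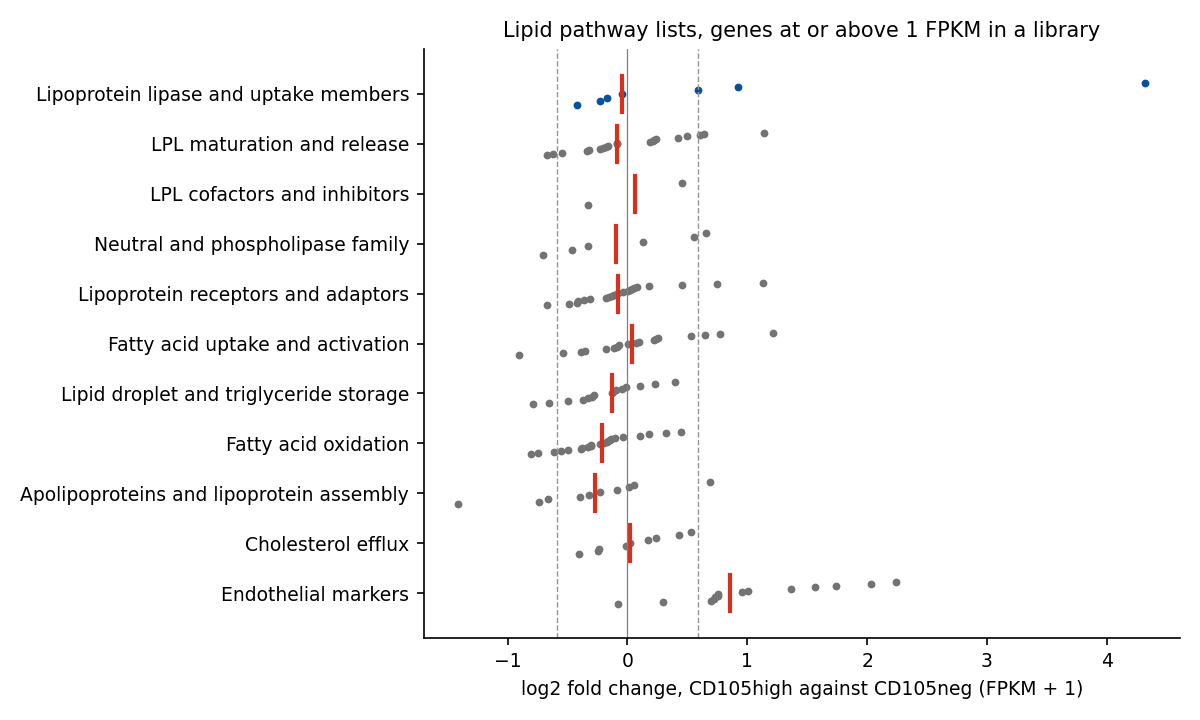
Log2 fold change of CD105high against CD105neg (x axis, FPKM + 1) for every measured gene of the members (blue), the 9 lipid lists and the endothelial markers (grey), 1 point per gene, spread vertically only to separate the points, with the median in red and dashed lines at 1.5-fold. LPL lies alone at 4.32, the medians of the lipid lists lie between -0.27 and 0.07, and that of the endothelial markers at 0.86.

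Markers of cell types that make these proteins elsewhere were read beside the members. The endothelial list had 12 of 14 genes higher and none lower in CD105high against CD105neg (median 0.86), and 7 of 14 higher in CD105low against CD105neg (median 0.65). The list includes the gate genes. RAMP2, part of the adrenomedullin receptor, stood at 28.0 against 6.08 FPKM (2.03), ROBO4, an endothelial guidance receptor with 11.8% of its sequence shared, at 4.32 against 0.59 FPKM (1.74), and VWF, a clotting protein of endothelium, at 16.5 against 4.89 FPKM (1.57). The summed level of the list was 1300 FPKM in CD105neg cells, 1765 FPKM in CD105low cells and 1827 FPKM in CD105high cells. This sum moved in the order of LPL, and its part in the LPL difference was not tested. Not every gene of the list had that order. EGFL7, a large part of the sum, stood at 558, 630 and 528 FPKM in CD105neg, CD105low and CD105high. CLDN5 stood at 0.68, 1.31 and 1.05 FPKM. Neither was called in CD105high against CD105neg (-0.08 and 0.29). Markers of fat cells were near 0. Of 10, LIPE alone was measured, ADIPOQ and LEP stayed at or below 0.05 FPKM, and the list summed to 1.97, 1.62 and 1.09 FPKM in CD105neg, CD105low and CD105high, against the order of LPL. Of the sequence of ADIPOQ, 45.6% is shared.

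The liver and endoderm markers, read beside APOB and APOE, had 4 of 13 genes measured and summed to 12.0, 9.73 and 10.4 FPKM. ALB and AFP stayed below 0.3 FPKM. CER1, a secreted inhibitor made by early endoderm, stood at 3.51 against 0.91 FPKM in CD105high against CD105neg (1.24). It was the only gene of this list called higher. APOA1 and APOA2 belong to the same list and were called lower (-0.66 and -0.74), so its measured genes did not move together. The part of this list in the APOB difference was not tested. TDGF1, a co-receptor of the pluripotent state and of early endoderm, stood at 1.54 against 2.24 FPKM (-0.35, not called), with 34.2% of its sequence shared. The macrophage markers, a cell type that makes LPL and APOE, had 3 of 13 genes measured and summed to 12.0, 19.1 and 22.6 FPKM. The sum followed the order of LPL and came mostly from MRC1, a mannose receptor that sinusoidal endothelium carries too, at 17.7 against 8.27 FPKM in CD105high against CD105neg (1.02). LYZ stood at 2.35 against 1.41 FPKM (0.48) and AIF1 at 1.93 against 1.53 FPKM (0.21), neither called, while C1QA, C1QB, C1QC and MARCO were listed at 0 in all 3 libraries, and CD14 and CSF1R stayed below 0.3 FPKM. Of the sequence of LYZ, 24.0% is shared.

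Erythroid and megakaryocyte genes ran against LPL. All 10 measured genes of that list of 18 were lower in CD105high than in CD105neg and 9 of them lower in CD105low than in CD105neg, and the list summed to 73.8 FPKM in CD105neg cells, 27.1 FPKM in CD105low cells and 14.1 FPKM in CD105high cells. HBE1, the embryonic globin gene, stood at 1.09 against 10.9 FPKM (-2.51), with 81.6% of its sequence shared, HBG2, a fetal globin gene with 64.5% shared, at 1.27 against 8.10 FPKM (-2.00), GYPB, a glycophorin with 15.6% shared, at 1.38 against 8.92 FPKM (-2.06), and RHAG, a red cell membrane protein, at 5.71 against 26.3 FPKM (-2.03). SAR1B, CPT2 and PLIN2 had the order of this list. So did many other lipid genes named above, among them ECI2, ACADS, DGAT2, VEGFB, APOA1 and the member LRP8. The part of this list in their differences was not tested. Of the heart and muscle markers, another tissue rich in LPL, 5 of 12 were measured, and the sum was 34.4, 29.1 and 23.0 FPKM, against the order of LPL. TNNI3, the cardiac troponin I gene, with 37.2% of its sequence shared, was the called one, at 1.66 against 3.94 FPKM (-0.90), and MYL7, TNNC1 and ACTC1 had log2 fold changes of -0.56, -0.50 and -0.41.

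**Figure D4:**
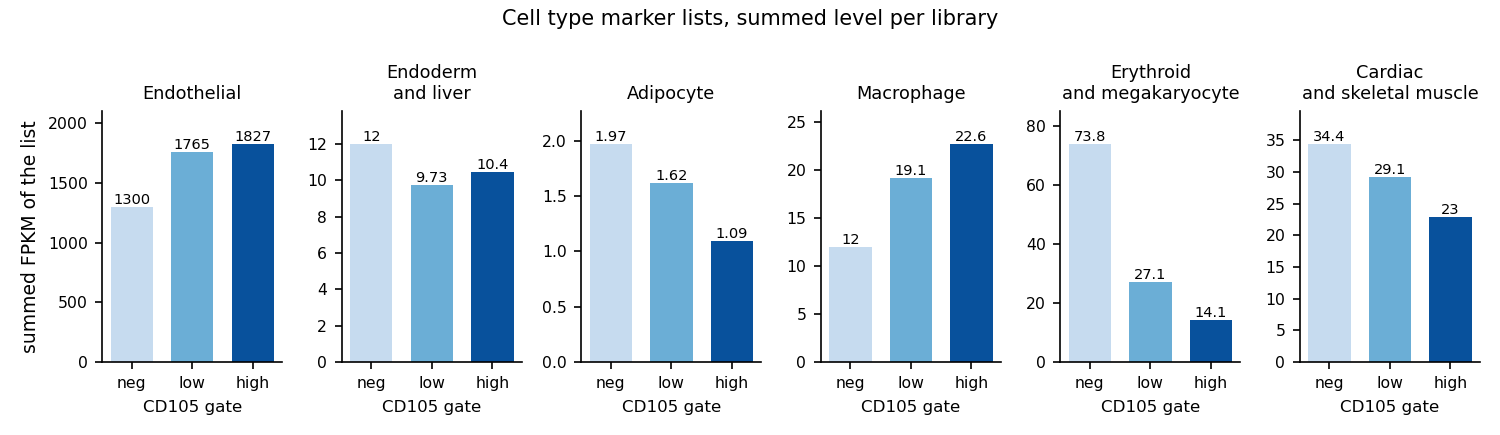
Summed FPKM (y axis, starting at 0 and scaled separately in each panel) of 6 lists of cell type markers in the CD105neg, CD105low and CD105high libraries (x axis), 1 bar per library. The endothelial and macrophage sums are highest in CD105high (1827 and 22.6 FPKM), and the erythroid and megakaryocyte sum is highest in CD105neg (73.8 FPKM).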

How the data were processed

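RNA-seq was measured in 3 libraries made with a TruSeq RNA kit, 1 each of CD105neg, CD105low and CD105high, per the labels' protocols. The deposited values were treated as FPKM. Neither the labels nor the headers name the unit, and TPM of part of the genes cannot be told from it; depth and read numbers are unknown. BWA, Bowtie, RSEM and the build hg19 are named in the submitters' processing notes, without versions or roles. The name of the CD105neg value column reads as CD105 positive; its group follows the sample title.

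From these values log2 ratios of value + 1 were computed with pandas 2.3.3 and numpy 2.4.6 in Python 3.11.15, after the code was checked on made-up libraries. With 1 library per group no test was possible. The members and the lists were chosen with earlier results of these data known. Named genes are the 10 members, ENG, PECAM1 and CD34, up to 4 genes per list with the widest log2 ratio between CD105high and CD105neg, and the 6 genes nearest to LPL, sought among genes other than mitochondrial, small RNA and clone-named ones; any other was chosen for its role or after its values were seen. Shared sequence is the share of 50-base pieces, taken every 10 bases from the GENCODE release 29 transcripts of a gene, that also occur in another gene on either strand. That release is on another build than hg19 and gave no coordinates. Alternatives were pseudocounts of 0.1 and 5, centring, rescaling each library to the same total, filters at 10 FPKM and none, and a 2-fold line.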

Additional observations from a re-analysis of the deposited data

How the results depend on the processing

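The LPL log2 fold change kept its direction and stayed past 1.5-fold under the 2 other pseudocounts, centring and rescaling: 3.70 to 4.60 for CD105high against CD105neg, 2.54 to 3.29 for CD105low against CD105neg, and 1.16 to 1.32 between CD105high and CD105low. No member called higher changed sign under these settings. LIPG and APOB fell short of the line with a pseudocount of 5 (0.48 and 0.19 for CD105high against CD105neg). The count of members higher was 1, LPL, in CD105high against CD105neg and 1 in CD105low against CD105neg with a pseudocount of 5, with the filter at 10 FPKM and with the 2-fold line. Counts over the 9 lipid lists moved by more than 1.5 times as follows. For CD105high against CD105neg, genes higher (10) were 4 with a pseudocount of 5, 18 after rescaling, 5 with the filter at 10 FPKM and 3 with the 2-fold line; genes lower (13) were 4 with a pseudocount of 5, 7 after centring, 3 with the filter and 1 with the 2-fold line. For CD105low against CD105neg, genes higher (5) were 9 with a pseudocount of 0.1, 2 with 5, 8 after rescaling, 3 with the filter and 0 with the 2-fold line; genes lower (2) were 5 with 0.1, 1 with 5, 5 after rescaling and 1 with the 2-fold line. For CD105high against CD105low, genes higher (2) were 0 with 5, 1 with the filter and 0 with the 2-fold line; genes lower (2) were 7 with 0.1, 0 with 5, 0 after centring, 4 after rescaling, 0 with the filter and 0 with the 2-fold line. Lower pseudocounts and rescaling give more weight to low genes; the filter leaves fewer genes, and for the rest the cause was not tested. Of the 6 genes nearest to LPL, 4 remained with a pseudocount of 0.1 and 2 with 5, FCN3 and C8orf4. No paired analysis was possible because each group has 1 library. The values of GPIHBP1, CD36 and FABP4, all below 0.2 FPKM, allow no order of the populations at this unknown depth.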

Other observations

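A few lipid genes did not follow the order of the CD105 gates but stood apart in CD105low; they were chosen after their values were seen. PLIN3, a coat protein of nascent lipid droplets, stood at 29.7 FPKM in CD105neg cells, 18.2 FPKM in CD105low cells and 28.7 FPKM in CD105high cells (log2 fold change -0.68 in CD105low against CD105neg, and 0.63 in CD105high against CD105low). SLC25A20, the carrier that brings acylcarnitines into mitochondria, stood at 5.69, 3.90 and 6.58 FPKM (-0.45 and 0.63). ETFA, an electron carrier of fatty acid oxidation, stood at 46.8, 34.6 and 42.2 FPKM (-0.43 and 0.28, neither called). Of the sampled sequence of PLIN3, 14.5% is shared with other genes. With 1 library per population a deviation of the CD105low library would look the same.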
